A study of Homo sapiens with 9 samples.

Results

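The response of uCaco-2 cells to OD was described from 6 of the 9 libraries of the experiment, 3 exposed to OD and 3 control libraries, with the other 3 libraries, exposed to CoCl2, used only where a difference from OD was tested. uCaco-2 are undifferentiated, proliferating Caco-2 cells, a human line derived from a colorectal adenocarcinoma that takes on enterocyte traits when it is grown to confluence. OD is the oxyquinoline derivative 4896-3212, described by the study as an inhibitor of the HIF prolyl hydroxylases, and it was given at 5 μM for 24 h. Control cells received fresh medium, and the remaining group received 300 μM CoCl2, a metal salt widely used as a chemical mimic of hypoxia. All groups are stated to have carried 0.5% DMSO, the solvent of OD, although diluting the stated OD stock to this concentration would by itself bring less, and what the OD wells held was not measured. The model is 1 cell line at 1 concentration and 1 time.

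Hypoxia-inducible factors (HIF) are pairs of a stable β-subunit (ARNT) with an α-subunit (HIF1A, or HIF-2α encoded by EPAS1) that is made continuously and destroyed when oxygen is present. The EGLN prolyl hydroxylases use oxygen, iron and 2-oxoglutarate to mark the α-subunit, VHL recognises the mark and the proteasome degrades the protein. When the hydroxylases are blocked, the α-subunit persists, enters the nucleus and binds DNA elements with the core letters RCGTG, near genes for glycolysis, angiogenic factors, matrix enzymes, mitophagy receptors and the hydroxylases themselves. These data hold messenger RNA only, so neither HIF protein nor hydroxylase activity was measured in them.

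The 6 libraries held 15998136 to 18298190 counts in control cells and 16387054 to 19623776 counts with OD. Replicates of a group differed from each other beyond sampling noise (chi-square per degree of freedom 1.74 to 3.05), so each was kept as a separate sample. The methods state biological replicates without saying which cultures they came from, and the p-values measure the spread between these samples only. The first principal component separated the OD from the control libraries and carried 80.1% of the variance, against 5.54% for the second. All 10 epithelial markers checked were expressed, among them EPCAM at 752 ± 22.8 CPM (counts scaled to a common library size, mean ± SD, n = 3) in control cells and 787 ± 20.3 CPM with OD. MS4A1 and ERG had 0 counts in all 6 libraries and PTPRC at most 2, while 10 markers of fibroblasts, immune cells and endothelium passed the count filter. Of these 10, LUM was upregulated (7, 8 and 4 to 25, 32 and 17 counts) and CD14 downregulated (101, 90 and 78 to 52, 55 and 35 counts). The summed level of the fibroblast markers went from a range of 109.1 to 118 CPM to a range of 87.4 to 92.7 CPM, that of the immune markers from 37.9 to 43.9 CPM to 36.0 to 39.3 CPM. The part of such cells in any result was not tested. FTH1, ALDOA, VIL1, CCNE2, ZNF395 and LOXL3, named below, share at least 25% of their annotated exon length with other genes, and PGK1, LDHA, GAPDH, ACTB and HSPA8 have near-identical pseudogenes, so reads of these genes may have been split.

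OD changed the level of many genes, more often upward by the fold used here. Of 15944 genes tested, 1449 (9.09% of those tested) were upregulated and 664 (4.16%) were downregulated where both an adjusted p under 0.05 (edgeR's quasi-likelihood F test, adjusted by Benjamini-Hochberg) and a log2 fold change of more than 1 in either direction were required. Genes that met both are called upregulated or downregulated throughout. Each count of called list members below is to be read beside these shares of all genes. Without the fold threshold, 5156 genes (32.3%) were higher and 5310 (33.3%) lower at that adjusted p, so differences of any size were about as frequent in one direction as in the other. The median log2 fold change over all genes was -0.01, and the median size was 0.38. Rises reached further than falls, with 345 upregulated genes above a log2 fold change of 2 and 60 downregulated genes below -2. The 3 OD libraries lay wholly above the 3 control libraries for 5366 genes (33.7%) and wholly below for 5471 (34.3%), and these included 1428 upregulated and 643 downregulated genes. Genes of low level were called more often, 18.4% upregulated below a mean of 1 CPM over all 9 libraries and 2.72% above 100 CPM. The count filter admits a gene that is high in 1 group alone, which favours calls at low level. How much of the 18.4% comes from the filter was not tested. Since the samples are bulk RNA, less of a transcript per cell and fewer cells that carry it cannot be told apart in any value below.

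Differences between OD and CoCl2 are given below where a gene or list turned on them, and both comparisons with control share the same control libraries. Against CoCl2, 3790 genes (23.8%) were higher and 2790 (17.5%) lower with OD under the same thresholds. That comparison leans on the scaling factors, 1.108 to 1.116 for control, 1.138 to 1.150 for OD and 0.770 to 0.795 for CoCl2 libraries. Without them the median difference between OD and CoCl2 over all genes moved from 0.05 to 0.60 on the log2 scale and the share of calls that are higher with OD from 57.6% to 81.7%, so each difference is to be read against that shift.

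**Figure D1:**
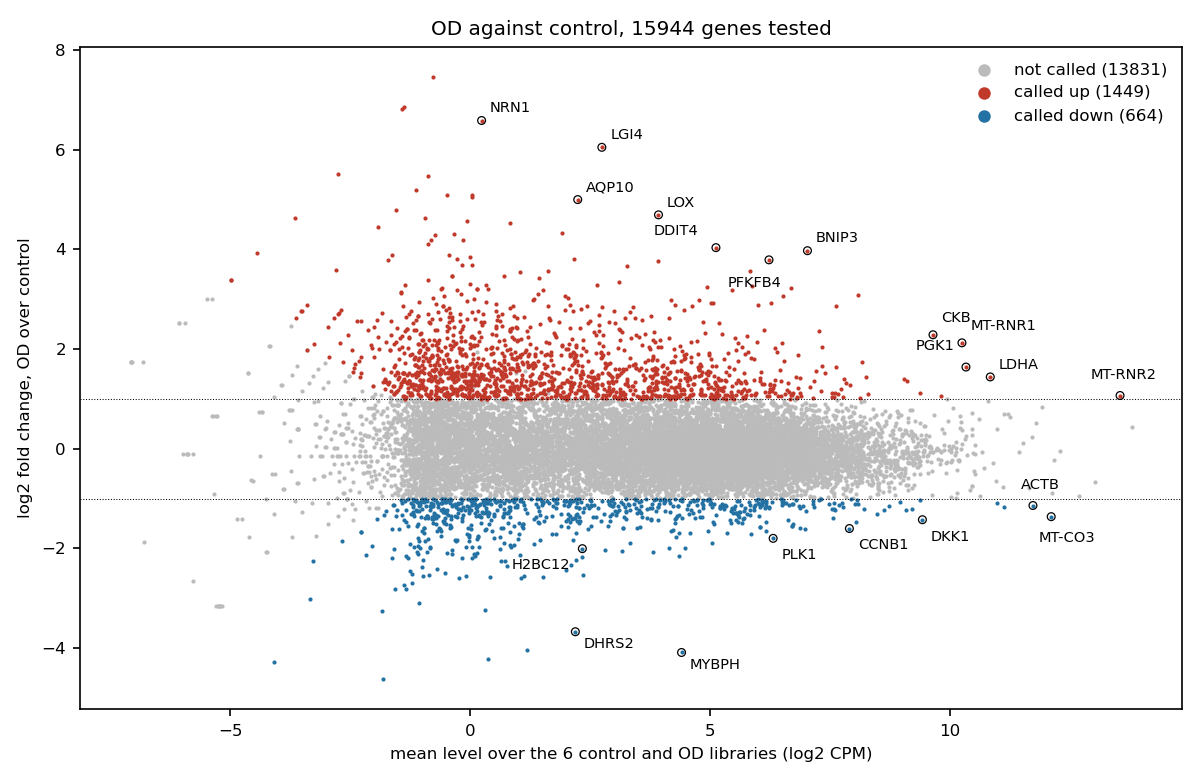
Each point is 1 of the 15944 genes tested, plotted by its mean level over the 6 libraries (log2 CPM) and its log2 fold change with OD over control, with dotted lines at -1 and 1 and 10 genes at 0 counts in all 6 libraries not drawn. The 1449 red points (upregulated) reach higher above 0 than the 664 blue points (downregulated) reach below, and the labelled hypoxia genes BNIP3, DDIT4 and PFKFB4 stand near a log2 fold change of 4.

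The HIF system itself moved little at the RNA level. Of its 15 tested genes, 2 were upregulated and 0 downregulated, beside 9.09% and 4.16% of all genes tested, with a median log2 fold change of 0.14. EPAS1, which encodes HIF-2α, stood at 64.0, 65.2 and 68.8 CPM in the control libraries and at 143, 139 and 145 CPM with OD, a 2.15-fold rise (log2 fold change 1.11 ± 0.046, SE, adjusted p = 7.84e-31). The HIF-1α gene HIF1A went the other way, from 144, 148 and 152 CPM to 97.8, 104 and 104 CPM, with no overlap between the groups and a log2 fold change of -0.54 ± 0.044 (adjusted p = 6.89e-17) that stayed inside the fold threshold. EGLN1, the main HIF prolyl hydroxylase, was upregulated 2.37-fold, from 11.3, 13.5 and 11.9 CPM to 30.7, 30.5 and 25.8 CPM (adjusted p = 7.34e-22), although 55.8% of its annotated exon length is shared with another gene, so its counts are uncertain. EGLN3, another hydroxylase gene known to respond to HIF, reached a log2 fold change of only 0.35 ± 0.064 (adjusted p = 2.56e-06) with OD. With CoCl2 its log2 fold change was 1.27, and the direct difference between OD and CoCl2 was -0.92 ± 0.059 (adjusted p = 3.06e-22). The recognition factor VHL, with a log2 fold change of -0.24, and the β-subunit gene ARNT, with 0.14, were not called.

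Genes that hypoxia is known to induce as regulators and feedback factors rose together. Of 16 listed genes, 13 were upregulated and none downregulated, beside 9.09% and 4.16% of all genes, and the median log2 fold change was 2.17. DDIT4 (chr10:72273919-72276036, plus strand in GRCh38), an inhibitor of mTORC1 signalling, had 4.14, 4.41 and 3.42 CPM in the control libraries and 66.9, 68.8 and 61.8 CPM with OD, a 16.4-fold rise (log2 fold change 4.04 ± 0.085, adjusted p = 6.92e-47). The stress-response gene NDRG1 rose 9.34-fold, from 23.2, 17.9 and 18.9 CPM to 181, 186 and 192 CPM (adjusted p = 6.23e-50). BHLHE40, a transcriptional repressor, went from 9.52, 7.94 and 8.69 CPM to 79.8, 80.4 and 75.9 CPM, 9.05-fold higher (adjusted p = 4.03e-45). In all of these genes the OD libraries lay far above the control libraries and close to each other. The MYC antagonist MXI1 reached a log2 fold change of 2.04, INSIG2, which holds back sterol synthesis, 2.30, and ANKRD37 3.03. PPFIA4, which encodes a liprin scaffold protein, set OD apart from CoCl2, at 6.08, 8.48 and 7.91 CPM in control cells, 58.1, 57.9 and 55.8 CPM with OD and 10.1, 8.74 and 10.7 CPM with CoCl2 (difference between OD and CoCl2 2.52 ± 0.079 on the log2 scale, adjusted p = 1.74e-38). C4orf47 had 0, 0 and 0 counts in the control libraries and 29, 22 and 23 counts with OD, at least 7.38-fold higher when the control is set to 3 counts per library. CITED2, KLF10 and ZNF395, with log2 fold changes of 0.77, 0.79 and 0.66, stayed under the fold threshold.

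The sequence before the RefSeq transcription start (GRCh38.p14) is printed for 4 genes, because DDIT4 and BNIP3 are hypoxia genes among the 15 largest rises, LOX is the collagen enzyme with the largest rise and NRN1 heads those 15. Windows cover the 250 bases before the start and are printed up to the first base that GENCODE places in an exon of a coding or decay-targeted transcript, and the window of LOX is 1 of 3 that RefSeq gives. Sequences run 5′ to 3′ along the gene, and capitals mark ACGTG or GCGTG on either strand, the letters of the core RCGTG.
BNIP3 (chr10:131981968-131982173, minus strand): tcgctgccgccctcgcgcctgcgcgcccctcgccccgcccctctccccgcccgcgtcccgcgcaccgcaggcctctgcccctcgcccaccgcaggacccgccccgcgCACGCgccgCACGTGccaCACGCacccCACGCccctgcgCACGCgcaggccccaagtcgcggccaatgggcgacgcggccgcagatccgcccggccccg
DDIT4 (chr10:72273674-72273918, plus strand): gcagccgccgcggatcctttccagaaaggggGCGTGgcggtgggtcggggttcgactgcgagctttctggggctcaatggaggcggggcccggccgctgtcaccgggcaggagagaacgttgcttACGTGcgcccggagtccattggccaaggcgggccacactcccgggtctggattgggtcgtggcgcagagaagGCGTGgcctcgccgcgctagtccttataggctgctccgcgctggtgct
LOX (chr5:122078414-122078509, minus strand): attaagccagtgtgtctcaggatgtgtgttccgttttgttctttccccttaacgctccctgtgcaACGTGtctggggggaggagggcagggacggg
NRN1 (chr6:6004045-6004275, minus strand): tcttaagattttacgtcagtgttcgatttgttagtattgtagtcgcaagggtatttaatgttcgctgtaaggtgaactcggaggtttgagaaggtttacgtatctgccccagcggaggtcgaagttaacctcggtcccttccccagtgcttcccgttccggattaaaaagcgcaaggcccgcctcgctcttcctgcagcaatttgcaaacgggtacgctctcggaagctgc
The BNIP3 window held the core at 6 positions, 2 of which are both strands of a single CACGTG, the letters of an E-box, and all 6 are in the printed bases. DDIT4 held it at 3 positions and NRN1 at 0. The whole LOX window held it at 4 positions, 1 of them printed, and that of PFKFB4, which is not printed, at 1. The windows of NRN1 and PFKFB4 lie inside these genes as GENCODE places them (chr6:5997999-6007605 and chr3:48517684-48562015, both minus strand). Bases before the outermost GENCODE start of either gene were therefore not searched. Of all 35116 RefSeq windows of this length, 43.2% held the core at least once and 3.22% at 4 or more positions. With the 50 bases after the start added, 48.4% of all windows held it. In such longer windows it was in the first window of 62.8% of the tested protein-coding genes that had one (81.4% of them). So a single match is common, more so among expressed coding genes, and a match describes letters and not binding. A comparison of the share among upregulated genes with the rest was void, because only 77.1% of the upregulated protein-coding genes had a window.

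Glycolytic enzymes were higher almost throughout. Of 19 genes for glucose uptake and glycolysis, 7 were upregulated and 1 downregulated (median log2 fold change 0.70), beside 9.09% and 4.16% of all genes. Of these 19 genes, 17 lay above the control libraries without overlap, as did 33.7% of all genes. LDHA, the lactate dehydrogenase subunit that favours lactate formation, rose 2.72-fold, from 1002, 992 and 975 CPM to 2702, 2645 and 2719 CPM (log2 fold change 1.44 ± 0.039, adjusted p = 1.16e-40). PGK1, the first ATP-forming enzyme of glycolysis, rose 3.12-fold, from 646, 627 and 614 CPM to 1975, 1963 and 1941 CPM (adjusted p = 1.04e-43). The aldolases ALDOC and ALDOA had log2 fold changes of 3.08 and 1.35, and the enolases ENO2 and ENO1 2.92 and 0.70. GPI, TPI1 and GAPDH, single enzymes of the pathway, had 0.64, 0.65 and 0.84, all inside the fold threshold. Hexokinases HK1 and HK2, which trap glucose in the cell, were upregulated 3.503-fold and 3.15-fold. SLC2A1, the glucose transporter GLUT1, stood at the threshold itself, from 625, 653 and 704 CPM to 1354, 1353 and 1245 CPM, and its log2 fold change of 0.996 ± 0.042 (adjusted p = 7.38e-30) rounds to the threshold without passing it. LDHB, the subunit that favours lactate use, was downregulated 2.21-fold, from 47.8, 57.4 and 46.95 CPM to 20.8, 24.3 and 23.8 CPM (adjusted p = 5.42e-22), with 33.4% of its exon length shared with another gene. The muscle-type phosphofructokinase PFKM was lower as well, with a log2 fold change of -0.73, while the liver-type PFKL had 0.57.

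Regulators that set glycolytic flux and send pyruvate to lactate rose in part. Of 11 tested, 5 were upregulated and none downregulated, beside 9.09% and 4.16% of all genes. PFKFB4, a kinase and phosphatase that makes and removes the phosphofructokinase activator fructose 2,6-bisphosphate, went from 11.5, 9.56 and 9.37 CPM to 139, 141 and 140.5 CPM, a 13.8-fold rise (log2 fold change 3.79 ± 0.064, adjusted p = 4.62e-52). PDK1, which switches off pyruvate dehydrogenase, went from 11.7, 11.6 and 10.2 CPM to 106, 108 and 106 CPM, 9.56-fold higher (adjusted p = 2.73e-48). The lactate exporter SLC16A3 rose 7.62-fold, from 7.59, 7.65 and 8.02 CPM to 61.0, 59.3 and 56.7 CPM (adjusted p = 2.21e-42). All 3 were also higher with OD than with CoCl2, by 1.65, 0.86 and 1.37 on the log2 scale, although PDK1 missed the fold threshold there. PFKFB3 rose 3.68-fold over control with OD but was lower than with CoCl2, with a difference of -0.48 ± 0.042 (adjusted p = 3.57e-16). None of 23 nuclear-encoded respiratory chain subunits was called (median log2 fold change -0.20), beside 13.3% of all genes. Abundant genes were seldom called, 2.72% upregulated and 2.08% downregulated above a mean of 100 CPM, and the part of level here was not tested. Of the 23 subunits, 11 lay below and 1 above the control libraries without overlap, beside 34.3% and 33.7% of all genes. Of 22 TCA cycle and pyruvate entry genes, PCK1 alone was called, with 1, 0 and 0 counts in the control libraries and 24, 26 and 18 with OD, at least 6.72-fold higher. PCK1 encodes the cytosolic enzyme that starts gluconeogenesis.

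**Figure D2:**
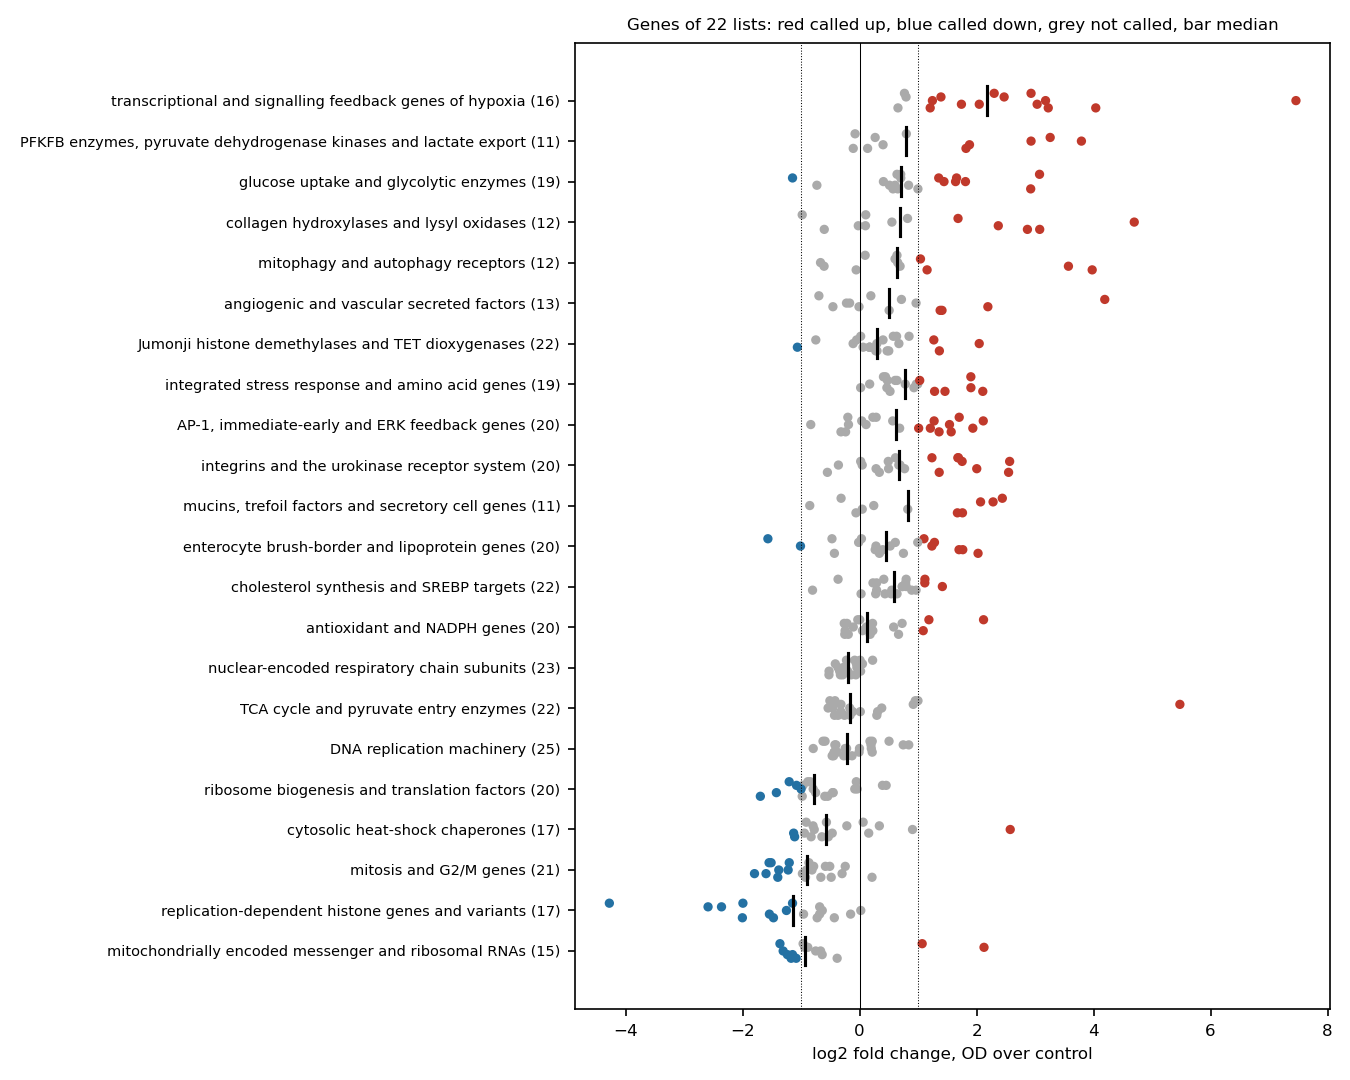
Each point is a tested gene of 1 of 22 lists (number tested in brackets), placed by its log2 fold change with OD over control, and the black bar is the list's median. Hypoxia feedback genes have the highest median (2.17), and the histone, mitochondrially encoded and mitosis lists have the lowest medians (-1.15, -0.94 and -0.91).

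Mitophagy receptors responded unevenly. Of 12 tested mitophagy and autophagy genes, 4 were upregulated and none downregulated, beside 9.09% and 4.16% of all genes. BNIP3 (chr10:131967684-131981967, minus strand in GRCh38), a mitochondrial outer membrane receptor that HIF-1 is known to induce, had the smallest adjusted p of all genes, going from 15.5, 15.98 and 15.5 CPM to 252, 246 and 241 CPM, a 15.7-fold rise (log2 fold change 3.98 ± 0.055, adjusted p = 7.48e-57). Its relative BNIP3L rose 11.9-fold, from 8.82, 9.85 and 8.02 CPM to 107, 107 and 105 CPM (adjusted p = 2.96e-50). OPTN and PINK1, of the ubiquitin-dependent route, were upregulated with log2 fold changes of 1.15 and 1.04. FUNDC1 and PHB2, both mitochondrial membrane receptors, had log2 fold changes of -0.67 and -0.61, inside the fold threshold.

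Several enzymes that modify collagen rose, with 5 of 12 upregulated and none downregulated, beside 9.09% and 4.16% of all genes. The α-subunits of collagen prolyl 4-hydroxylase, P4HA1 and P4HA2, rose 8.44-fold and 5.17-fold, P4HA1 from 56.1, 58.8 and 58.1 CPM to 487, 477 and 498 CPM (log2 fold change 3.08 ± 0.044, adjusted p = 7.85e-56). The lysyl hydroxylase PLOD2 rose 7.30-fold, from 44.9, 49.2 and 49.0 CPM to 329.9, 352 and 363 CPM (adjusted p = 4.62e-52), whereas PLOD1 and PLOD3 had log2 fold changes of 0.10 and 0.10. LOX (chr5:122063195-122078413, minus strand), the lysyl oxidase that cross-links collagen and elastin, went from 1.13, 1.08 and 1.18 CPM to 30.5, 28.7 and 28.7 CPM, a 25.9-fold rise (log2 fold change 4.69 ± 0.12, adjusted p = 1.15e-41). With CoCl2 it stood at 1.68, 2.01 and 1.78 CPM, so the OD libraries were far above both other groups (difference between OD and CoCl2 4.01 ± 0.12 on the log2 scale, adjusted p = 4.69e-40). LOXL2 also rose, by 1.68, while LOXL3 and LOXL4 had log2 fold changes of -0.98 and -0.60.

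Secreted vascular factors responded unevenly, with 4 of 13 tested upregulated and none downregulated, beside 9.09% and 4.16% of all genes. VEGFA, the main angiogenic growth factor, rose 2.65-fold, from 125, 118 and 119.7 CPM to 324, 315 and 323 CPM (log2 fold change 1.41 ± 0.041, adjusted p = 7.57e-39). ANGPTL4, an inhibitor of lipoprotein lipase, had 2, 2 and 1 counts in the control libraries and 33, 43 and 33 with OD, at least 10.8-fold higher. The ephrin ligands EFNA1 and EFNA3 rose 2.60-fold and 4.57-fold. ADM, the vasodilator adrenomedullin and a common hypoxia gene, was lower with OD, from 59.9, 52.95 and 59.7 CPM to 41.1, 40.4 and 44.3 CPM (log2 fold change -0.46 ± 0.058, adjusted p = 1.37e-09, inside the fold threshold). With CoCl2 ADM stood at 633, 571 and 547 CPM, and the difference between OD and CoCl2 was -3.80 ± 0.053 (adjusted p = 2.12e-48). CA9, the carbonic anhydrase used as a hypoxia marker, had too few counts to be tested, 0, 1 and 0 in the control libraries and 10, 16 and 10 with OD. Its relative CA12 was upregulated 2.29-fold.

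Jumonji demethylases and TET enzymes use the same cofactors as the EGLN enzymes. KDM3A, KDM4B and KDM7A, erasers of repressive histone methyl marks, were the 3 upregulated of 22 tested, beside 9.09% of all genes. KDM8 was the 1 downregulated, beside 4.16%. KDM3A rose 4.12-fold, from 63.3, 63.9 and 61.2 CPM to 254, 253 and 271 CPM (log2 fold change 2.04 ± 0.046, adjusted p = 2.18e-45), and reached 678, 652 and 628 CPM with CoCl2. The median of the list was 0.30 with OD and 1.29 with CoCl2, and 10 members were called lower with OD than with CoCl2 against 1 called higher, beside 17.5% and 23.8% of all genes.

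Iron and redox genes moved in a few places. Of 19 iron genes tested, 3 were upregulated and 1 downregulated, beside 9.09% and 4.16% of all genes. CYBRD1, a duodenal ferric reductase and a known HIF-2 target, rose 3.79-fold, from 2.74, 2.01 and 3.03 CPM to 9.36, 10.1 and 9.85 CPM (log2 fold change 1.92 ± 0.14, adjusted p = 9.92e-20), while with CoCl2 it stood at 1.55, 2.55 and 1.89 CPM. The ferroxidase CP and the heme oxygenase HMOX1 were upregulated 2.32-fold and 2.25-fold, and the ferrireductase STEAP3 was downregulated 2.18-fold. The transferrin receptor TFRC had a log2 fold change of 0.68 ± 0.040 (adjusted p = 1.84e-23), and the ferritin genes FTH1 and FTL had 0.16 and -0.08. The iron transporter genes SLC11A2 and SLC40A1 did not rise, with log2 fold changes of -0.10 ± 0.050 and -0.25 ± 0.052. In the whole list, 8 genes lay above and 6 below the control libraries without overlap, beside 33.7% and 34.3% of all genes. Of 20 antioxidant and NADPH genes, 3 were upregulated with OD, beside 9.09% of all genes: the cystine importer SLC7A11 4.34-fold, OSGIN1 2.27-fold and the glutathione peroxidase GPX2 2.12-fold. The list's median was 0.13 with OD and 1.83 with CoCl2, and 12 members were called lower with OD than with CoCl2, beside 17.5% of all genes. None of 7 aryl hydrocarbon receptor genes was called, beside 13.3% of all genes. Of the 7, 4 lay above and 2 below the control libraries without overlap, beside 33.7% and 34.3% of all genes. The receptor's best-known target CYP1A1 had a log2 fold change of -0.22 ± 0.052. TIPARP and the receptor gene AHR had 0.96 ± 0.062 and 0.85 ± 0.081, inside the fold threshold, which TIPARP passed without OD replicate 2. Among 10 metallothionein and zinc transporter genes tested, only MT2A was upregulated, beside 9.09% of all genes. It rose 3.17-fold from a low level of 1.56, 1.27 and 1.57 CPM.

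**Figure D3:**
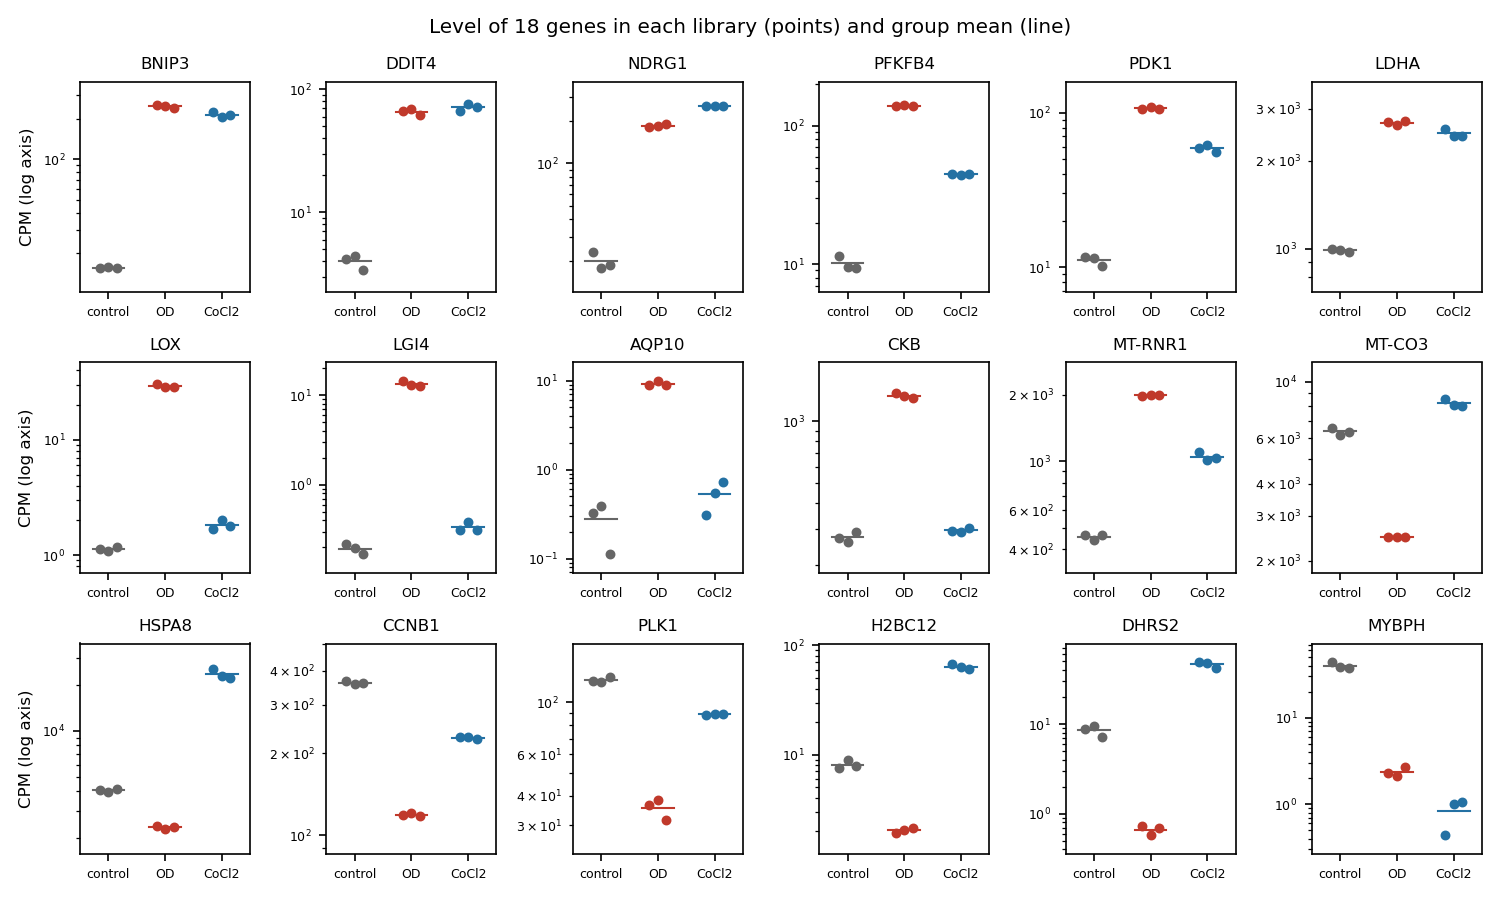
Level in CPM (log axis) of 18 genes in each of the 3 control, 3 OD and 3 CoCl2 libraries (points) with the group mean (line). The OD points lie together and apart from the control points in every panel. LOX, LGI4, AQP10 and CKB are high with OD alone, and HSPA8, H2BC12 and DHRS2 are low with OD and high with CoCl2.

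The largest fitted rises named were mostly genes that control cells hardly expressed. NRN1, which encodes the neuronal membrane protein neuritin, had 0, 1 and 0 counts in the control libraries and 51, 44 and 52 with OD, at least 14.8-fold higher. Its printed window, which lies inside the gene as GENCODE places it, held no RCGTG core. TCAF2, a regulator of the cold-sensing channel TRPM8, had 1, 1 and 1 counts in the control libraries and 24, 50 and 51 with OD, at least 12.6-fold higher, and the first OD library was the lowest. LGI4 (chr19:35124513-35142451, minus strand), which encodes a secreted protein known from the myelination of peripheral nerve, went from 0.215, 0.196 and 0.168 CPM to 14.2, 12.9 and 12.6 CPM, a 66.2-fold rise (log2 fold change 6.05 ± 0.21, adjusted p = 3.90e-35). AQP10, an intestinal water and glycerol channel, went from 0.323, 0.392 and 0.112 CPM to 8.86, 9.85 and 8.89 CPM, 32.0-fold higher (adjusted p = 2.74e-29). PPP1R3G, a glycogen-targeting phosphatase subunit, had 5, 1 and 2 counts in the control libraries and 71, 79 and 66 with OD (log2 fold change 4.53 ± 0.33). LGALS14, a galectin otherwise known from placenta, rose 20.2-fold from 0.430, 0.294 and 0.337 CPM, and TNNI2, fast skeletal troponin I, rose 12.7-fold from 1.40, 1.67 and 1.12 CPM. RNF183, a ubiquitin ligase, rose 13.6-fold, from 1.99, 1.86 and 2.36 CPM to 30.0, 27.0 and 27.3 CPM (adjusted p = 5.42e-39). KRT6A, a keratin of stressed epithelia with near-identical relatives, varied more between its OD libraries, with 0.646, 0.539 and 0.617 CPM in control cells and 11.2, 7.37 and 6.66 CPM with OD (log2 fold change 3.81 ± 0.22, adjusted p = 7.94e-19). The remaining members of the 15 largest rises were HR, at least 12.7-fold higher, the hypoxia genes DDIT4, BNIP3, PFKFB4 and LOX above, and LINC01293, a long non-coding RNA with 3, 1 and 4 counts in control cells and 41, 35 and 44 with OD.

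In counts rather than folds, the gains were led by mitochondrial ribosomal RNA and by abundant metabolic genes. The genes called upregulated gained 35305 CPM in all, and those called downregulated lost 23393 CPM. CKB, the brain-type creatine kinase, went from 270.3, 259 and 291 CPM to 1371, 1336 and 1296 CPM with OD, a 4.88-fold rise (log2 fold change 2.29 ± 0.042, adjusted p = 6.54e-50), and stood at 292, 288 and 305 CPM with CoCl2. DSP, the desmosomal protein desmoplakin, rose 2.098-fold, from 597, 574 and 567 CPM to 1240, 1177 and 1228 CPM, and NFE2L1, a transcription factor of proteasome genes, rose 2.18-fold. GPRC5A, a retinoic acid-inducible receptor, rose 2.55-fold, from 304, 314 and 319.7 CPM to 824, 822 and 749.6 CPM. The losses were led by mitochondrial messenger RNAs and by ACTB, cytoplasmic β-actin, which fell 2.20-fold from 4471, 4616 and 4973 CPM to 2164, 2194 and 2029 CPM (log2 fold change -1.14 ± 0.042, adjusted p = 7.62e-34) and stood at 4977, 5012 and 5114 CPM with CoCl2. DKK1, a secreted Wnt inhibitor, fell 2.68-fold, from 986, 1031 and 997 CPM to 376, 368 and 380.3 CPM (adjusted p = 3.34e-40). HNRNPU, a nuclear RNA-binding protein, lay at 881, 916 and 890.5 CPM and 447, 426 and 456 CPM, and its log2 fold change of -1.02 was just past the threshold. TAGLN, an actin-binding protein, fell 2.32-fold, with 47.8% of its exon length shared with another gene.

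RNAs encoded by mitochondrial DNA split by class. Mitochondrial DNA encodes 2 ribosomal RNAs and 13 messenger RNAs for respiratory chain subunits, made as long precursors from both strands. The 13 messenger RNAs together had 47708, 45640 and 46216 CPM in the control libraries and 25200, 25053 and 24634 CPM with OD, or 5.09% to 5.28% and 2.82% to 2.88% of all counts. The 2 ribosomal RNAs together had 8353, 7900 and 8349 CPM in the control libraries and 17721, 18540 and 18454 CPM with OD, so the classes moved in opposite directions without overlap between the groups. All 13 messenger RNAs were lower at an adjusted p under 0.05, and 6 passed the fold threshold, read against 4.16% of all genes. MT-CO3, a subunit of cytochrome c oxidase, fell 2.57-fold, from 6593, 6206 and 6365 CPM to 2487, 2487 and 2482 CPM (log2 fold change -1.36 ± 0.041, adjusted p = 1.42e-38). MT-ND1, a subunit of complex I, had the smallest difference of the messenger RNAs, a log2 fold change of -0.38 ± 0.041. MT-RNR1, the small ribosomal RNA, rose 4.37-fold, from 466, 438 and 462 CPM to 1967, 1997 and 1998 CPM (adjusted p = 5.52e-49), and MT-RNR2, the large one, rose 2.098-fold (adjusted p = 1.51e-32). MT-ND6, the single messenger RNA read from the other strand, fell 2.21-fold, close to its neighbour MT-ND5 at 2.25-fold. With CoCl2, whose comparison shares the control libraries, the log2 fold changes of the 13 ran from 0.37 for MT-CO3 to 1.06 for MT-ND1, and all 13 were called lower with OD than with CoCl2. MT-RNR1 had 1098, 1009 and 1036 CPM with CoCl2 and was higher with OD by 0.92 ± 0.039 on the log2 scale (adjusted p = 3.38e-31). MT-RNR2 had 15920, 16000 and 15250 CPM with CoCl2, and its difference was 0.05 ± 0.041 (adjusted p = 0.271). Libraries were selected for poly(A) tails, and these RNAs have near-identical nuclear copies whose reads the counting may have split, so the values describe the polyadenylated, countable part.

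**Figure D4:**
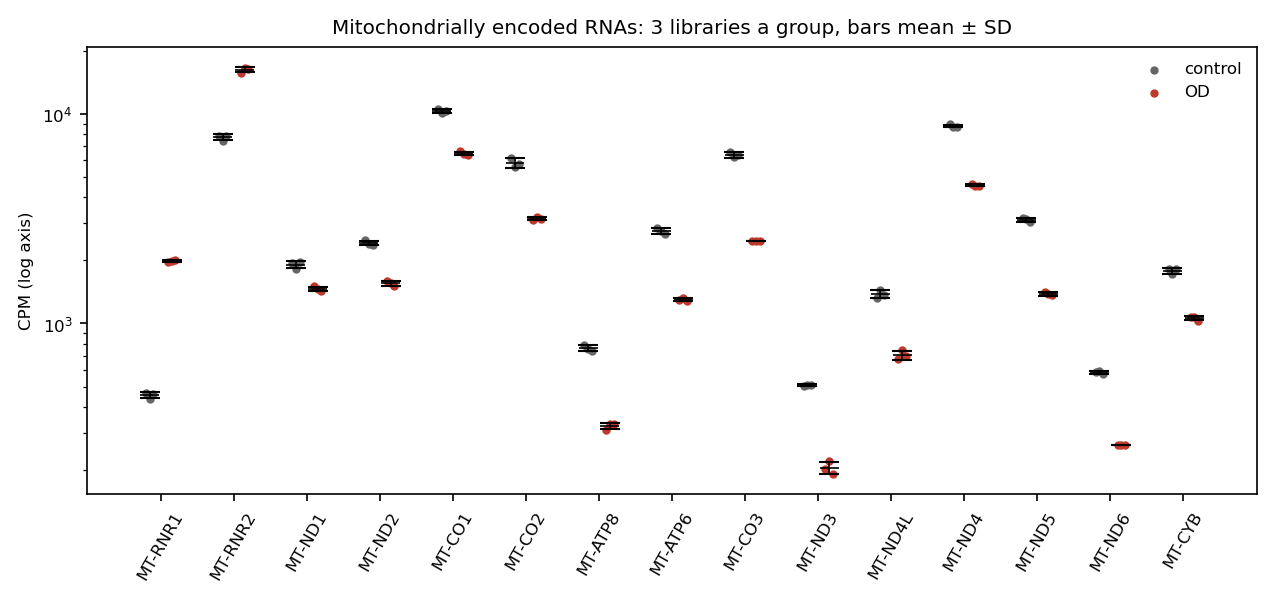
Level in CPM (log axis) of the 15 RNAs of mitochondrial DNA, ordered along the genome, in the 3 control and 3 OD libraries (points), with black bars for the mean ± SD. The 2 ribosomal RNAs at the left are higher with OD, and the 13 messenger RNAs are lower with OD, MT-CO3 and MT-ND3 most.

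Some genes of mitosis fell, and no gene of DNA replication was called. Of 21 G2 and mitosis genes, 8 were downregulated and none upregulated (median log2 fold change -0.91), beside 4.16% and 9.09% of all genes. Of these 21 genes, 20 lay below the control libraries without overlap, as did 34.3% of all genes. PLK1, a kinase that drives mitotic entry, fell 3.48-fold, from 123, 122 and 127 CPM to 36.6, 38.5 and 31.6 CPM (log2 fold change -1.80 ± 0.054, adjusted p = 2.10e-38). CCNB1, cyclin B1, the partner of CDK1, fell 3.03-fold, from 365, 359 and 359 CPM to 119, 120.5 and 118 CPM (adjusted p = 2.98e-42). CDC20, which activates the anaphase-promoting complex, fell 2.92-fold, from 156, 154 and 156 CPM to 56.2, 53.4 and 49.5 CPM (adjusted p = 8.06e-38), and stood at 199, 191 and 202 CPM with CoCl2. The other downregulated members were KIF20A (-1.51), CENPE (-1.40), AURKA (-1.38), TOP2A (-1.22) and UBE2C (-1.20), by log2 fold change. CDK1 itself had -0.25, the proliferation marker MKI67 -0.49, and CDC25C, at 0.21, was the lone member with a positive sign. Of 25 replication genes none was called, with log2 fold changes from -0.79 for POLE2, a DNA polymerase subunit, to 0.84 for CCNE2, cyclin E2. Inside the fold threshold, 15 of the 25 lay below and 8 above the control libraries without overlap, beside 34.3% and 33.7% of all genes. The helicase subunits MCM2 to MCM7 were all lower, between -0.21 for MCM2 and -0.63 for MCM6. The licensing factor CDT1 was higher, at 0.74, and the CDK inhibitor CDKN1A rose 7.89-fold, from 3.60, 4.26 and 4.38 CPM to 35.4, 32.0 and 29.1 CPM (log2 fold change 2.98 ± 0.093, adjusted p = 1.36e-37). CDKN1A stood higher still with CoCl2, at 141, 134 and 142 CPM. It was 1 of 5 upregulated among 19 p53 targets and CDK inhibitors, beside 9.09% of all genes. The others were CDKN1C (1.49), TP53INP1 (1.65), BBC3 (1.29) and PLK3 (1.19), while MDM2 had a log2 fold change of 0.39 and BAX of -0.68.

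The windows before the starts of PLK1 and CDC20 are printed in the same way because genes of this phase are known for CCAAT boxes and for the cell cycle homology region TTTGAA, which capitals mark here on either strand.
PLK1 (chr16:23678639-23678868, plus strand): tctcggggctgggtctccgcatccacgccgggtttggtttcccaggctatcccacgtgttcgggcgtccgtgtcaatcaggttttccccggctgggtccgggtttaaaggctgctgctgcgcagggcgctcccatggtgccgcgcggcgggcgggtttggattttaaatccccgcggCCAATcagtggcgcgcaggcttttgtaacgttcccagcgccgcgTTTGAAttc
CDC20 (chr1:43358731-43358980, plus strand): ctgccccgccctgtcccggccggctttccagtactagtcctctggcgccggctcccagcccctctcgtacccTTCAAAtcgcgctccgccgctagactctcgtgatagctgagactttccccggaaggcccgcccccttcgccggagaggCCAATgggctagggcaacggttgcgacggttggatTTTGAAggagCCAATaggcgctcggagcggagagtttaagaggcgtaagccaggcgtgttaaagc
PLK1 held 1 CCAAT and 1 TTTGAA, and CDC20 held 2 of each. The core RCGTG described above was also in these windows, at 3 positions in PLK1, among them both strands of 1 CACGTG, and at 1 position in CDC20. Of all 35116 windows of this length, 32% held CCAAT and 13.3% held TTTGAA.

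**Figure D5:**
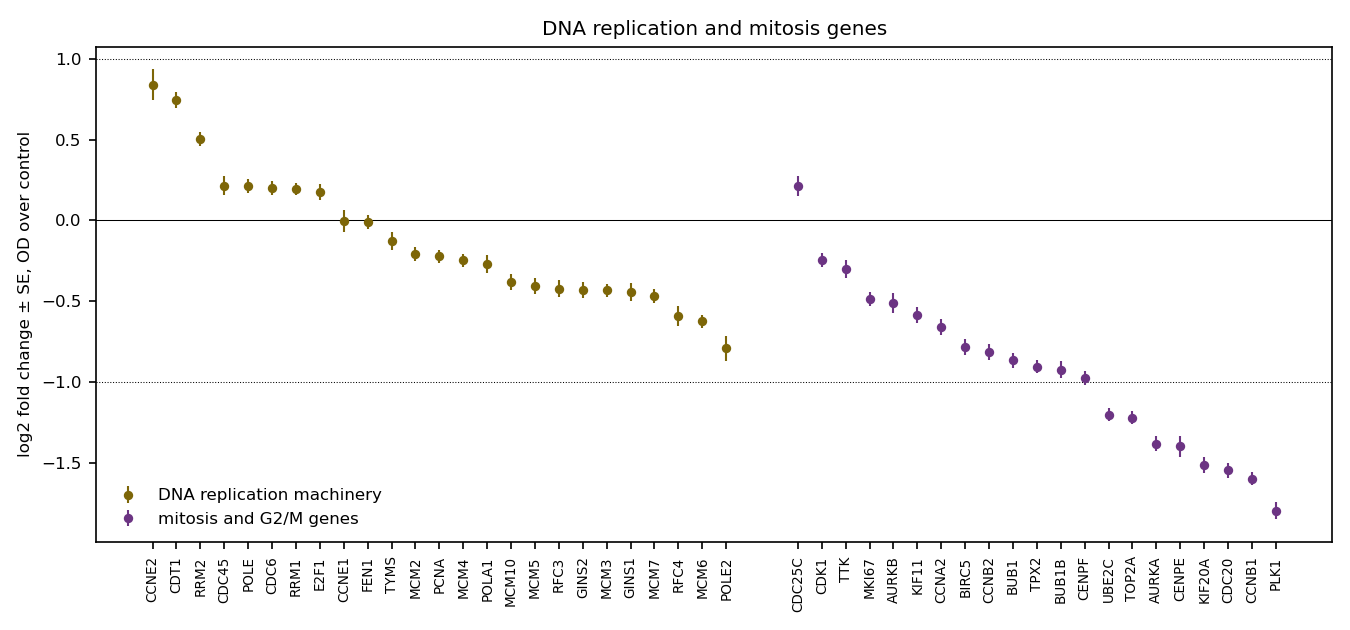
Log2 fold change with OD over control (± SE) of each tested gene of DNA replication (brown) and of mitosis (purple), sorted within its list, with dotted lines at -1 and 1. All 25 replication genes lie between the dotted lines, and 8 of 21 mitosis genes lie below -1, PLK1 lowest at -1.80.

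Histone genes were the list with the largest share of falls, with 9 of 17 tested downregulated, beside 4.16% of all genes. None was upregulated, beside 9.09%, and the median was -1.15. Of the 9, H2BC4 went from 7, 7 and 10 to 4, 5 and 2 counts. H3C2 went from 2, 5 and 0 to 0, 0 and 0 counts, with overlap between the groups. Both, and H4C8, which was not called, passed the count filter only through the CoCl2 libraries (log2 fold changes over control 3.925, 3.198 and 3.029). Most replication-dependent histone messenger RNAs end in a stem-loop rather than a poly(A) tail, so poly(A)-selected libraries count few of them, and the family holds near-identical copies whose reads are uncertain. H2BC12 went from 7.59, 8.82 and 7.91 CPM to 1.91, 2.04 and 2.13 CPM, a 4.01-fold fall (log2 fold change -2.004 ± 0.14, adjusted p = 1.42e-20). H2BC5, which encodes another H2B, fell 6.02-fold, from 3.17, 3.53 and 3.98 CPM to 0.545, 0.355 and 0.905 CPM (adjusted p = 2.82e-15). With CoCl2 H2BC12 stood at 67.1, 63.1 and 60.4 CPM and H2BC5 at 10.6, 9.29 and 8.29 CPM, above both other groups. H2AX, the variant phosphorylated at DNA breaks, had a log2 fold change of -0.96.

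Cytosolic chaperones and ribosome biogenesis genes were lower with OD in most members, few of them past the fold threshold. Of 17 heat-shock genes, 2 were downregulated (HSPH1 and the mitochondrial HSPE1) and 1 upregulated (HSPA6, from 1, 1 and 1 counts to 5, 5 and 12 counts, at least 2.28-fold higher), with a median of -0.57. The shares of all genes were 4.16% downregulated and 9.09% upregulated. HSPA6 had too few counts in control and OD libraries to pass the count filter and was tested only because of the CoCl2 libraries (log2 fold change over control 11.8). The constitutive chaperone HSPA8 lay at 4085, 3966 and 4136 CPM in control cells and at 2374, 2290 and 2353 CPM with OD (log2 fold change -0.80 ± 0.043, adjusted p = 2.71e-25), inside the fold threshold and without overlap. HSP90AA1, the stress-responsive HSP90, had a log2 fold change of -0.94 ± 0.042. With CoCl2 the median of this list was 2.24, and 14 of its genes, HSPA6 among them, were called lower with OD than with CoCl2, beside 17.5% of all genes. Of 20 ribosome biogenesis and translation genes, 5 were downregulated and none upregulated (median -0.77), beside 4.16% and 9.09% of all genes. NOP56, a core protein of box C/D ribonucleoproteins that modify ribosomal RNA, fell 2.30-fold, from 424, 405 and 412 CPM to 187, 172 and 179 CPM (adjusted p = 1.19e-34). RRP9, a protein of the U3 particle, fell 2.68-fold, and the nucleolar protein NCL had a log2 fold change of -0.98. POLR1B, an RNA polymerase I subunit, was called at a log2 fold change of -1.001 that sits on the threshold. The ribosomal protein gene RPS6 and the elongation factor gene EEF1A1 had log2 fold changes of -0.06 and -0.04.

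Amino acid stress genes rose in part, with 6 of 19 tested upregulated and none downregulated, beside 9.09% and 4.16% of all genes, and a median of 0.78. CHAC1, which degrades glutathione, rose 3.73-fold, from 10.2, 8.48 and 10.2 CPM to 35.4, 38.2 and 33.5 CPM (log2 fold change 1.90 ± 0.082, adjusted p = 3.86e-30), and stood at 11.4, 12.8 and 10.2 CPM with CoCl2. MTHFD2, a mitochondrial folate enzyme, rose 2.43-fold, from 138, 144 and 145 CPM to 351, 351 and 335 CPM (adjusted p = 1.05e-36). ATF3 and SESN2, stress-induced regulators, rose 3.74-fold and 2.75-fold, and ASNS, asparagine synthetase, rose 4.30-fold with 49.3% of its exon length shared with another gene. ATF4 itself had a log2 fold change of 0.52. In the endoplasmic reticulum list, HERPUD1 and DNAJB9 were the 2 of 16 upregulated, beside 9.09% of all genes. The chaperone HSPA5 had a log2 fold change of 0.32. Of 22 sterol genes, 3 were upregulated, among them MVD and INSIG1, beside 9.09% of all genes, and none was downregulated. In 19 the OD libraries lay above the control libraries without overlap, beside 33.7% of all genes (median 0.59).

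Immediate-early and adhesion genes were raised in part. Of 20 AP-1, immediate-early and ERK feedback genes, 9 were upregulated and none downregulated, beside 9.09% and 4.16% of all genes. The ERK phosphatase DUSP5 rose 4.33-fold, from 35.1, 33.2 and 34.05 CPM to 151, 148 and 144 CPM (log2 fold change 2.11 ± 0.050, adjusted p = 4.02e-44), and FOS and JUNB rose 2.96-fold and 2.56-fold, while EGR1 had a log2 fold change of -0.84. Of 20 integrin and urokinase system genes, 8 were upregulated and none downregulated, beside the same shares of all genes. The urokinase receptor PLAUR rose 5.84-fold and its protease PLAU 4.005-fold, PLAU from 1.45, 1.72 and 1.63 CPM to 7.13, 6.30 and 5.80 CPM (adjusted p = 6.75e-17). MMP14, a membrane-bound matrix protease, and TIMP2, its inhibitor, rose 2.36-fold and 2.57-fold. ITGB6, an epithelial integrin subunit, rose 3.20-fold, whereas ITGB1, the most widely shared β-subunit, had a log2 fold change of 0.28. Of 18 growth factor genes, 7 were upregulated, beside 9.09% of all genes. Among them were IRS2, an insulin receptor substrate, at 5.06-fold, and TGFB1 at 2.31-fold. The ERBB ligands AREG and EREG had log2 fold changes of -0.77 and -0.92.

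Intestinal genes moved in both directions, and none of the 10 epithelial markers was called. The mucin and secretory list had 5 of 11 tested upregulated and none downregulated, beside 9.09% and 4.16% of all genes. The membrane mucin MUC13 rose 4.19-fold, from 7.75, 7.70 and 8.64 CPM to 35.5, 35.4 and 29.6 CPM (log2 fold change 2.07 ± 0.086, adjusted p = 3.54e-29), and MUC17 rose 5.42-fold from 0.861, 0.784 and 0.561 CPM. The secreted mucin MUC2 stayed at 0 to 4 counts per library and was not tested. Of 20 enterocyte genes, 6 were upregulated and 2 downregulated, beside the same shares of all genes. The fructose transporter SLC2A5 went from 3.66, 3.48 and 2.92 CPM to 12.8, 13.7 and 14.7 CPM, 4.07-fold higher (adjusted p = 6.61e-24), and the peptide transporter SLC15A1 from 9.20, 9.76 and 9.93 CPM to 32.7, 34.4 and 30.7 CPM, 3.39-fold higher (adjusted p = 4.61e-29). Both stood below the control mean with CoCl2, at 2.05, 1.78 and 2.36 CPM and 4.91, 3.87 and 4.25 CPM. SLC2A2, the low-affinity glucose transporter GLUT2, fell 2.96-fold, and VIL1, the microvillus protein villin, had a log2 fold change of -0.43. Among regulators, KLF4, a factor of differentiating epithelium, rose 4.86-fold and the pioneer factor FOXA1 fell 2.79-fold, from 75.3, 74.0 and 74.5 CPM to 25.7, 27.6 and 27.0 CPM (adjusted p = 4.99e-33), while CDX2 and HNF4A had log2 fold changes of 0.30 and 0.46. Of 19 stem cell, Wnt and Notch genes, 2 were upregulated and 3 downregulated, beside 9.09% and 4.16% of all genes. The Wnt target genes AXIN2, LEF1 and NKD1 fell 2.06-fold, 2.33-fold and 2.17-fold, the stem cell marker LGR5 had a log2 fold change of -0.80, and the receptor NOTCH1 rose 3.01-fold. Of 18 junction genes, 2 were upregulated and 1 downregulated, beside 9.09% and 4.16% of all genes. All of them were claudins, which set the permeability of tight junctions. CLDN3 rose 2.35-fold, CLDN2 fell 2.51-fold, and CLDN4, 2.02-fold higher, was not called without OD replicate 1, OD replicate 2 or control replicate 2.

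Of 18 NF-kB and cytokine genes, 5 were upregulated, beside 9.09% of all genes. Among them were the apoptosis inhibitor BIRC3 (2.58-fold), the adhesion molecule ICAM1 (2.101-fold) and the chemokine CCL28 (3.06-fold). NFKB1 had a log2 fold change of -0.48, and IL6 and CXCL1 had 0 to 4 counts per library and were not tested. Among 15 clock genes 4 were upregulated and 1 downregulated, beside 9.09% and 4.16% of all genes. CIART, a repressor of CLOCK and ARNTL, rose most, from 1.94, 1.62 and 2.41 CPM to 9.86, 10.2 and 9.96 CPM (log2 fold change 2.34 ± 0.14). In the NFAT list of 10, NFATC1 was upregulated (1.48) and the calcineurin subunit PPP3CB downregulated (-1.35), beside 9.09% and 4.16% of all genes. Of 16 fatty acid genes, 4 were upregulated, beside 9.09% of all genes. Among them were the lipid droplet genes PLIN2 (2.14-fold) and HILPDA (2.58-fold). Of 23 plasma protein genes, only the fibrinogen chain FGG was called, 2.18-fold lower, while 4.16% of all genes were downregulated and 9.09% upregulated. SNAI1 and FSCN1 were the 2 of 10 epithelial-mesenchymal genes that were upregulated, 2.33-fold and 2.19-fold, beside 9.09% of all genes. SNAI2, ZEB1 and TWIST1 were at 0 to 2 counts per library.

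OD stood apart from both other groups for a smaller set. 695 genes (4.36% of those tested) were higher with OD than with control and with CoCl2, and 176 (1.1%) were lower than both, each difference called by itself. Without the scaling factors the genes lower than both numbered 88. SLCO2A1, a prostaglandin transporter, went from 1.45, 1.03 and 1.01 CPM in control cells to 11.8, 10.7 and 11.8 CPM with OD and stood at 0.311, 0.232 and 0.524 CPM with CoCl2, so the groups did not overlap (difference between OD and CoCl2 4.91 ± 0.21, adjusted p = 1.67e-31). TNNI2 stood at 0.373, 0.309 and 0.472 CPM with CoCl2, LGI4 at 0.311, 0.387 and 0.315 CPM and LGALS14 at 0.0622, 0.387 and 0.315 CPM, all of them below every OD library. In the other direction DHRS2, a short-chain dehydrogenase known to respond to histone deacetylase inhibitors, had 8.82, 9.41 and 7.24 CPM in control cells, 0.727, 0.577 and 0.692 CPM with OD and 48.8, 48.1 and 42.3 CPM with CoCl2. It fell 12.7-fold with OD (log2 fold change -3.67 ± 0.18, adjusted p = 2.77e-27), and its difference between OD and CoCl2 was -6.11 ± 0.13 (adjusted p = 2.92e-47). PIF1, a DNA helicase, fell 3.995-fold, from 29.3, 27.7 and 28.7 CPM to 7.22, 7.15 and 7.03 CPM, with 23.8, 22.8 and 25.2 CPM in the CoCl2 libraries. The other named members were 5 histone genes (H2BC5, H2AC6, H4C9, H2BC12 and H3C8) and DNAH12, an axonemal dynein.

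MYBPH (chr1:203167811-203175826, minus strand), a myosin-binding protein of muscle, had 44.1, 38.7 and 37.5 CPM in control cells and 2.32, 2.13 and 2.66 CPM with OD, a 17.0-fold fall (log2 fold change -4.09 ± 0.11, adjusted p = 9.75e-42), and was lower again with CoCl2, at 0.435, 1.01 and 1.05 CPM. INMT, an amine methyltransferase, went from 2.31, 2.40 and 2.08 CPM to 0.136, 0.400 and 0.160 CPM, and APOBEC2, a muscle member of the cytidine deaminase family, from 3.87, 2.79 and 4.60 CPM to 0.908, 0.400 and 0.586 CPM. GPR83, a G protein-coupled receptor, fell 5.43-fold, from 7.64, 6.86 and 5.89 CPM to 1.36, 1.06 and 1.33 CPM (adjusted p = 1.02e-19). AC010251.1, a transcript without a gene name, fell to 3, 3 and 2 counts from 48, 50 and 43, at least 17.4-fold lower. The rest of the 15 were 4 more such transcripts (AC244502.1, AL024508.1, AC007493.1 and AC083843.4), DHRS2, C12orf56, FAM72A and the histone genes H2BC5, H2AC6 and H4C9, with falls from 4.78-fold for AC083843.4 to 16.5-fold for AC244502.1. FAM72A has near-identical copies, so its counts are uncertain.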

How the data were processed

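The authors deposited raw counts per gene symbol for 9 libraries. Per the labels and methods, poly(A) RNA from biological replicates was sequenced as single-end reads from a TruSeq Stranded mRNA kit, trimmed with cutadapt 2.10, checked with FastQC 0.11.9 and aligned with STAR 2.7.5b to GRCh38.p13 with GENCODE release 34. The counting tool and its strand setting are not given in the sources used here, so overlapping and antisense genes may share reads.

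Counts were filtered with filterByExpr, scaled with TMM and fitted with 1 mean per group over all 9 libraries by edgeR 4.0.16 (quasi-likelihood, robust, in R 4.3.3), and p-values were adjusted by Benjamini-Hochberg over all 15944 genes tested of 60591 symbols. SE is the fold change divided by the square root of F, and CPM is scaled by TMM. Tested on simulated data for OD against control (14850 genes), the fit called 99 of 100 genes changed by log2 1.5, 100 of 100 changed by 2.5, and 1 unchanged gene. The changed genes all had a control mean above 1 CPM, so recovery of changes below that level was not tested. The spread was that estimated by the fit, and the simulated CoCl2 libraries had control levels, so the real data are less simple than this setting.

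Genes were named by rule, from called genes averaging 1 CPM or more whose OD and control libraries did not overlap: the 15 largest fitted rises and falls, the 8 largest CPM gains and losses, the 8 furthest above or below both other groups, and members of 44 gene lists. The comparison, the lists and the members were chosen with earlier results of these data known. XIST and Y-linked genes were left out. Where every library of a group had at most 3 counts, a fold is a lower bound computed against 3 counts per library. GENCODE release 44 (GRCh38) gave coordinates and exon overlaps for the 14225 tested genes (89.2%) whose symbol it holds, and RefSeq gave promoter windows. Alternatives were DESeq2 1.42.0, other scalings, count filters and thresholds, thinned counts, fits of each pair of groups, a replicate block and each replicate left out.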

Additional observations from a re-analysis of the deposited data

How the results depend on the processing

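The counts of upregulated and downregulated genes, and of genes higher or lower with OD than in both other groups, stayed within 1.5 times the reported 1449, 664, 695 and 176 with DESeq2, DESeq2's size factors, thinned counts, no count filter and each pair of groups fitted alone. A minimum of 10 counts in every library, which left 12583 genes, gave 803, 331, 351 and 78. A test against a log2 fold change of 1 (glmTreat) gave 720, 245, 341 and 56, and the adjusted p alone gave 5156, 5310, 2778 and 2414. Library size alone gave 88 genes lower than both other groups and moved no other of these counts by 1.5 times. Leaving out each replicate in turn gave 1451 to 1590, 677 to 735, 705 to 776 and 176 to 193. With the replicate number as a block the counts were 1453, 662, 692 and 175. Control and OD libraries of the same number did not deviate together (correlations of 0.0269, 0.0224 and -0.0049), so the numbers were not read as a pairing. No named gene that was called changed sign under an alternative that still tested it, and genes not called were not checked for this.

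SLC2A1 passed the fold threshold with DESeq2, with its size factors, with the minimum of 10 counts and with OD and control fitted alone, and POLR1B fell short under the same alternatives. HNRNPU was not called with the minimum of 10 counts, with library size alone or without OD replicate 2, and CD14 not with thinned counts, without OD replicate 3 or without control replicate 1. PINK1 lost its call without OD replicate 1 or control replicate 3, and KDM8 without control replicate 1. H2BC4 lost it with DESeq2, thinned counts or no count filter, and without OD replicate 3 or control replicate 3. H3C2 lost it with DESeq2 on 6 libraries and without control replicate 2. CLDN4 lost it in the cases given beside its value. Under the test against a log2 fold change of 1, 55 of the named and listed genes lost their call. MT-RNR2, DSP, LDHB, GPX2, CP, STEAP3, CA12, NFATC1, AXIN2, LEF1, NKD1, CLDN3, ICAM1, PLIN2, FGG, BBC3, PLK3, HSPA6, HSPE1, SLC26A3 and SLCO4C1 were among them. The medians of the immune, fibroblast and endothelial marker lists, each of 5 tested genes or fewer, changed sign under some alternatives, and those of the other lists kept their sign. At 3 libraries per group and 15998136 to 19623776 counts per library, genes with a few counts per library carry bounds rather than folds.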

Other observations

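Transporters and acid-base genes held calls not described above. Of 12 carbonic anhydrase and acid-base transporter genes, 4 were upregulated and none downregulated, beside 9.09% and 4.16% of all genes. Among them, SLC26A3, the chloride and bicarbonate exchanger of the colon, rose 2.99-fold, from 0.161, 0.392 and 0.281 CPM to 0.954, 0.533 and 1.12 CPM (log2 fold change 1.58 ± 0.43, adjusted p = 0.00104). With CoCl2 SLC26A3 stood at 0.311, 1.16 and 1.15 CPM, and its difference between OD and CoCl2 was -0.03 ± 0.34 (adjusted p = 0.935). Of 15 efflux and organic anion transporters and aquaporins, 5 were upregulated and none downregulated, beside the same shares of all genes. AQP3, a water and glycerol channel, was at 24.1, 20.7 and 22.7 CPM in control cells and 64.6, 61.9 and 60.4 CPM with OD (log2 fold change 1.47 ± 0.062). The uptake transporter SLCO4C1 rose 2.85-fold.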
